A study of Mus musculus with 22 samples.

Results

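This account concerns how much each gene's expression differed from line to line among mouse pluripotent cell lines kept in 2i medium, set against lines kept in serum. Embryonic germ (EG) lines come from primordial germ cells of the embryo, and embryonic stem (ES) lines from the blastocyst. It asks which genes vary between lines in each culture, not which mean levels shift. Of 19938 genes with 1 probe set each, 7695 (38.6%) were autosomal and had a mean log2 value over all arrays above the 60th percentile of genes, a limit of 6.391, and these are the member genes below. Genes just inside the limit were Nphs1 at 6.391 and Dglucy and Acta1 at 6.392, and genes just outside it were Trim11 and Ifnl2 at 6.391 and Yju2 at 6.389.

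Single RNA samples of 22 cultures were hybridised to Affymetrix arrays, each called a line below. The 2i lines numbered 13. They were 4 EG lines derived from day 8.5 embryos directly in 2i (EG_2i), 4 EG lines started briefly in serum and then moved to 2i (EG_2is), and 5 ES lines in 2i (ES_2i). The serum lines numbered 9, with 4 EG lines (EG_FCS) and 5 ES lines (ES_FCS). The EG lines of all groups came from day 8.5 embryos. In 2i the cells grew on laminin in N2B27 with LIF, the MEK inhibitor PD0325901 and the GSK3 inhibitor CHIR99021. In serum they grew with LIF on a layer of mouse embryonic fibroblasts, so medium, inhibitors and feeder layer changed together and cannot be told apart. All lines carried the Oct4-delta-PE-GFP transgene from a cross with 129SvEv. The strain label calls this a mixed background, whereas the design text calls the embryos genetically identical. ES lines were switched between the cultures once established, and the labels do not say which of the 10 ES arrays come from switched lines. Each of the 5 replicate numbers has the same sex and batch in ES_2i and ES_FCS, so the 10 ES arrays may come from as few as 5 lines. The tests treat all 22 arrays as separate lines. The cell type label reads EGCs on all 22 samples, the 10 ES ones included, so EG and ES are taken from titles. Female lines were 3 of 4 in EG_2i, 2 of 4 in EG_2is, 2 of 5 in ES_2i, 1 of 4 in EG_FCS and 2 of 5 in ES_FCS. Among EG lines the share of female lines was thus larger in 2i than in serum, and among ES lines it was equal. Sex mix and culture therefore changed partly together in the comparison of spread. EG arrays were all of batch 1, while replicates 1 and 2 of each ES group were of batch 1 and replicates 3 to 5 of batch 2.

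As background, pluripotent cells in serum and LIF receive both self-renewal and differentiation cues, and transcription factors such as Nanog and Tbx3 are known to fluctuate between cells there. In 2i the inhibitors block ERK signalling and raise Wnt signalling, which holds cells in a more uniform naive state. Female mouse pluripotent cells can carry 2 active X chromosomes, and cultures often lose one. Each array measured the RNA of a whole culture, so spread between arrays is spread between lines and says nothing of spread between single cells. For the same reason, a different share of cells of one kind and a different amount of RNA per cell cannot be told apart.

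The arrays resembled each other closely. Array medians were 5.54 to 5.62 log2, Pearson's r within a group was 0.979 to 0.998, and 0 pairs of arrays were identical. All 12 core pluripotency genes and all 15 naive genes listed passed the limit. The mean level of the 12 core genes was 9.84 to 10.09 in 2i lines and 10.63 to 10.73 in serum lines. The Y-linked genes Eif2s3y and Uty were at 6.6 log2 or above in all lines labelled male and at 4.89 or below in all labelled female.

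Member genes were somewhat more spread between lines in 2i than in serum. The within-group standard deviation of a gene, pooled over groups with 10 degrees of freedom in 2i and 7 in serum, had a median of 0.155 log2 in 2i lines and 0.135 log2 in serum lines. The median log2 ratio of the variances, 2i over serum, was 0.41, and 4803 of 7695 genes (62.4%) had the larger variance in 2i. By group the median SD was 0.149 in EG_2i, 0.147 in EG_2is and 0.137 in ES_2i, against 0.132 in EG_FCS and 0.125 in ES_FCS. The shift was much the same at every expression level, with median log2 ratios of 0.42, 0.39, 0.44 and 0.41 in 4 equal bins of genes from low to high level. Taken line by line, the median absolute deviation from the group mean was 0.111 ± 0.016 log2 in 2i lines (SD, n = 13) and 0.100 ± 0.013 in serum lines (SD, n = 9). This difference of 0.0113 did not pass a 2-sided exact permutation test (p = 0.101). It was 0.00906 in EG lines only (2-sided exact permutation p = 0.145) and 0.00917 in ES lines only (exact permutation p = 0.516). With batch and sex terms it was 0.0035 (exact permutation p = 0.626). It passed with quantile normalization again (0.0162, exact permutation p = 0.0211), with the feeder level described below as a term (0.0246, exact permutation p = 0.00326) and when 1 of 3 ES lines was left out, with p = 0.0479 without ES_2i replicate 1, p = 0.023 without ES_2i replicate 4 and p = 0.0225 without ES_2i replicate 5, all 2-sided exact permutation tests.

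The lists of genes with the widest spread in the 2 cultures overlapped in part. An SD over 0.5 log2 was found for 171 genes in 2i and 78 in serum, with 28 genes on both lists, which is 16.4% of the 2i list and 35.9% of the serum list. Over all member genes 2.22% passed in 2i and 1.01% in serum. The 2i count was 109 with batch and sex terms, 111 with a sex term in each culture, 77 with an X-linked term and 84 in male lines only, and the serum count was 25 with a feeder term. An SD over 1 was found for 11 genes in 2i and 2 in serum. Across genes, which are not independent replicates, the log2 SD in 2i and in serum had a Pearson's r of 0.559. One line stood out in 2i: ES_2i replicate 3 was the most deviating 2i line for 67 of the 171 genes (39.2%, beside 18.7% of all member genes), and 126 genes passed without it. In serum, ES_FCS replicate 1 was the most deviating line for 26 of the 78 (33.3%, beside 18.5% of all member genes), and 64 passed without it.

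**Figure D1:**
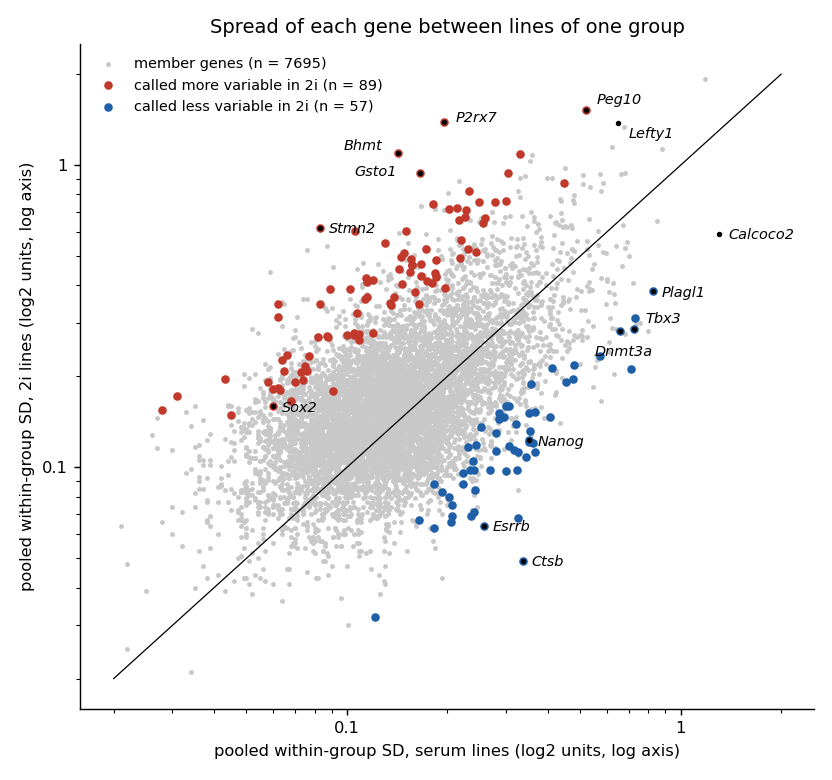
Pooled within-group SD of each of 7695 member genes in 2i lines (vertical axis) and serum lines (horizontal axis), both in log2 units on log axes, with the line of equal SD. Red points are the 89 genes called more variable in 2i and blue points the 57 called less variable; P2rx7, Peg10, Bhmt and Stmn2 lie far above the line, and Nanog, Esrrb and Ctsb far below it.

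A gene was called when limma, fitted to the absolute deviations from the group mean of all 19938 genes, gave a Benjamini-Hochberg adjusted p under 0.05. On this rule 89 member genes were more variable in 2i (1.16%) and 57 less variable (0.741%), beside 1.21% and 0.577% over all 19938 genes, X-linked ones included, and 0.811% and 0.571% over the 19106 autosomal genes. At an unadjusted p under 0.05 the counts were 888 and 449. These counts depended heavily on how deviation was measured. With deviations from the group median, limma called 0 genes in each direction, with 471 and 252 at an unadjusted p under 0.05. With squared deviations it called 2 and 5, and the F test of the 2 pooled variances called 5 and 2. Deviations of the 4 or 5 lines of a group sum to 0 and so are not independent, which limma does not allow for. The SDs below are measurements of these lines, and a call is no more than the outcome of this 1 test.

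Leaving out 1 line often changed the counts as well. The number called more variable in 2i ran from 30 to 123 over the 22 omissions, and the number called less variable from 15 to 84. Omission of any of the 12 EG lines brought the first count to 30 to 50, as did omission of ES_FCS replicate 1, which gave 50. The second count moved by over 1.5 times without EG_FCS replicates 1 to 4 (29, 15, 21 and 17), without ES_FCS replicate 1 (17), without EG_2i replicate 3 (32) or 4 (34) and without EG_2is replicate 1 (31), 2 (32) or 4 (24). Of 27 named genes with a call, 8 kept it in all 22 omissions: P2rx7, Peg10, Bhmt, Stmn2, Pimreg, Cldn6, Elac2 and Cep55.

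**Figure D2:**
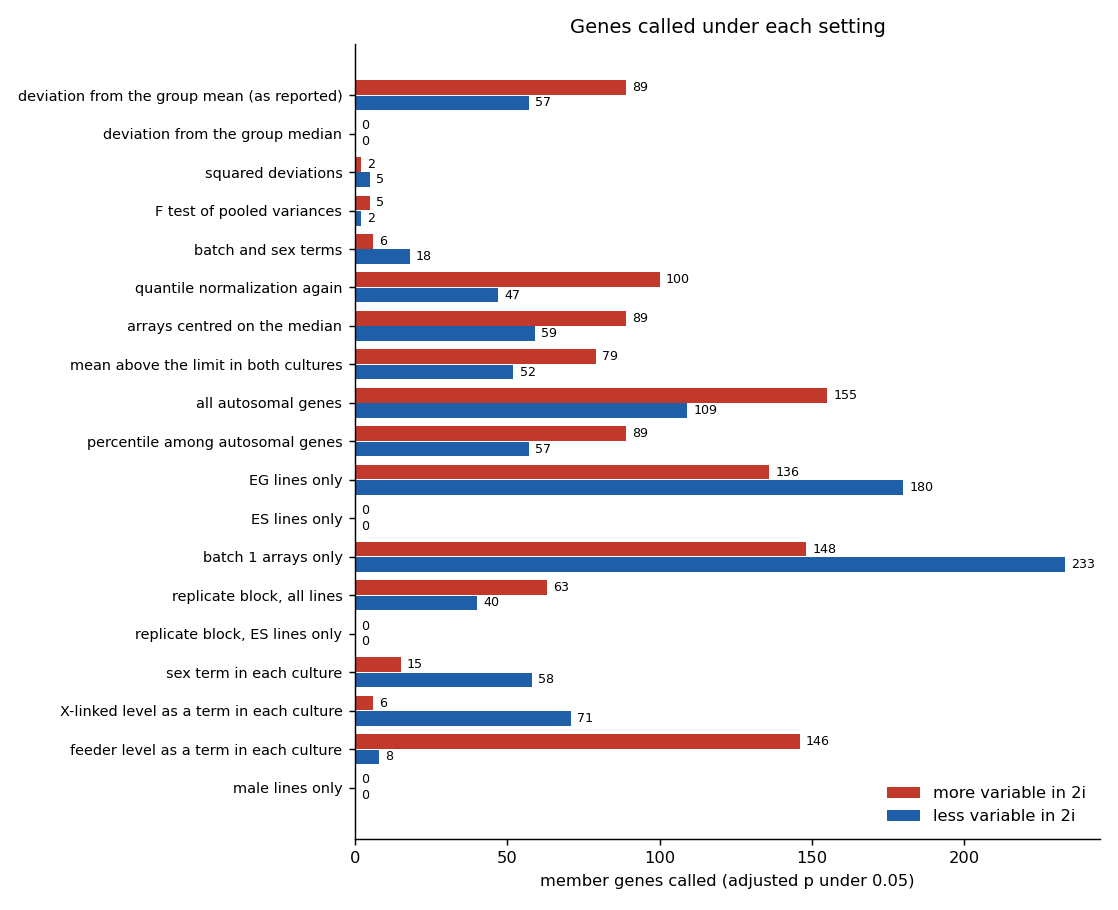
Number of member genes called more variable (red) and less variable (blue) in 2i under the setting reported and under other choices of deviation, test, covariates, normalization, genes and lines, with the count printed at each bar. Counts are 89 and 57 as reported, 0 and 0 with deviations from the group median, and 0 and 0 in ES lines alone or male lines alone.

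The 89 genes called more variable in 2i had a median SD of 0.408 log2 in 2i lines (range 0.149 to 1.525) and 0.136 in serum lines (0.028 to 0.519). They lay on all 19 autosomes, with at most 18 on one. All 89 had the larger variance in 2i within EG lines and within ES lines taken separately, which describes genes chosen for their pooled spread. Their means did not shift one way: 24 were also called higher on average in 2i and 29 lower, where 62.7% of all member genes were called for a mean difference. Serum lines averaged under the 6.391 limit for 7 of the 89, P2rx7 and Bhmt among them, and 2i lines for 3.

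P2rx7, an ATP-gated cation channel, had one of the largest spreads in 2i. It was at 6.90, 9.18, 9.61 and 6.39 log2 in EG_2i lines, at 6.20, 6.99, 9.18 and 9.87 in EG_2is lines and at 7.31, 6.19, 7.34, 5.89 and 5.68 in ES_2i lines, against 5.63, 5.42, 5.36 and 5.58 in EG_FCS lines and 5.50, 5.71, 5.47, 5.18 and 5.15 in ES_FCS lines. Each EG group in 2i thus split into 2 high and 2 low lines, while all serum lines lay under the limit, with a mean of 5.44 beside array medians of 5.54 to 5.62. The SD was 1.39 in 2i and 0.20 in serum, and the mean absolute deviation differed by 1.13 ± 0.175 (SE, adjusted p = 0.00169). With serum values this low, a narrow spread there may reflect little signal, which the test cannot tell from steady expression.

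Peg10, a paternally expressed imprinted gene derived from a retrotransposon and needed in the placenta, split the same way among EG lines in 2i. It was at 7.18, 10.35, 10.09 and 7.19 log2 in EG_2i lines, at 7.23, 6.63, 10.38 and 9.75 in EG_2is lines and at 9.25, 8.43, 8.99, 10.73 and 10.44 in ES_2i lines, against 11.99, 12.43, 12.20 and 11.92 in EG_FCS lines and 12.12, 11.24, 11.24, 10.54 and 10.52 in ES_FCS lines. EG_2i replicates 2 and 3 and EG_2is replicates 3 and 4 were at 9.75 or above, the other EG lines in 2i were at 7.23 or below, and all EG_FCS lines were higher than both. Within ES_2i the order was not shared: replicates 4 and 5 were the highest for Peg10 and the lowest for P2rx7. The SD was 1.53 in 2i and 0.52 in serum (difference of mean absolute deviations 1.05 ± 0.19, SE, adjusted p = 0.00531). Ndn, a second paternally expressed imprinted gene, had an SD of 0.52 in 2i and 0.24 in serum (adjusted p = 0.0187). Another imprinted gene, Plagl1, which encodes a zinc-finger transcription factor, was called in the opposite direction, with 0.38 in 2i and 0.83 in serum (adjusted p = 0.0327). Among all 13 imprinted member genes 2 were called more variable in 2i and 1 less. The larger SD was in 2i for 11 of the 13, beside 62.4% of all member genes.

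Bhmt and Gsto1 encode metabolic enzymes. Bhmt, which makes methionine from homocysteine and betaine, was at 7.38, 9.54, 8.83 and 7.09 log2 in EG_2i lines, at 6.82, 7.61, 8.83 and 9.01 in EG_2is lines and at 8.86, 8.80, 6.30, 8.55 and 8.46 in ES_2i lines, against 4.89 to 5.34 in the 9 serum lines. All 2i lines were above all serum lines, whose mean of 5.12 was under the array medians, so the gene passed the limit through its 2i level. Within ES_2i replicate 3 stood over 2 log2 units below the rest. The SD was 1.09 in 2i and 0.14 in serum (difference of mean absolute deviations 0.875 ± 0.161, SE, adjusted p = 0.00637). At so low a serum level the test cannot tell a steady gene from a gene with little signal. The other 2 probe sets of Bhmt gave SDs of 0.975 and 0.325 in 2i and 0.226 and 0.167 in serum. Gsto1, an omega-class glutathione transferase, was at 8.25 to 10.74 log2 in 2i lines and 7.83 to 8.49 in serum lines, with an SD of 0.945 in 2i and 0.165 in serum (adjusted p = 0.0186). Its call was lost without EG_2i replicate 1, 3 or 4 or ES_2i replicate 3, with an adjusted p of up to 0.0671.

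Stmn2, Pimreg, Nectin2, Cldn6 and Perp were called as well. Stmn2, a stathmin that destabilises microtubules in neurons, was at 9.96, 8.84, 8.57 and 10.12 log2 in EG_2i lines, at 10.65, 10.13, 9.47 and 9.16 in EG_2is lines and at 9.97, 9.68, 10.63, 9.82 and 10.48 in ES_2i lines, against 10.51 to 10.79 in the 9 serum lines. Serum lines were almost level, and among EG lines in 2i the 4 high for P2rx7 were the 4 low for Stmn2. The SD was 0.62 in 2i and 0.08 in serum (difference 0.51 ± 0.08, SE, adjusted p = 0.00165). Pimreg, a regulator of mitosis, had an SD of 0.605 in 2i and 0.11 in serum (adjusted p = 0.0115). Nectin2, a cell adhesion molecule, had 0.35 in 2i and 0.06 in serum (adjusted p = 0.0168), lost without EG_2is replicate 1, 2 or 4 (up to 0.0615). Cldn6, a tight-junction claudin, had 0.66 in 2i and 0.22 in serum (adjusted p = 0.007), and 5.08 to 6.76 log2 in 2i lines against 7.79 to 9.02 in serum lines. Perp, a p53 target of cell junctions, had 0.76 in 2i and 0.30 in serum (adjusted p = 0.0304).

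A further 3 called genes had small spreads in both cultures. Sox2, a core pluripotency factor, was at 11.61, 11.83, 11.84 and 11.47 log2 in EG_2i lines, at 11.53, 11.49, 11.65 and 11.80 in EG_2is lines and at 11.59, 11.30, 11.64, 11.36 and 11.35 in ES_2i lines, against 11.52, 11.54, 11.64 and 11.47 in EG_FCS lines and 11.60, 11.52, 11.49, 11.48 and 11.54 in ES_FCS lines. The ranges overlap, and the SD was 0.16 in 2i and 0.06 in serum (adjusted p = 0.032). Cdc16, a subunit of the anaphase-promoting complex, had 0.17 in 2i and 0.03 in serum (adjusted p = 0.0435). Hif1a, the oxygen-regulated transcription factor, had 0.155 in 2i and 0.03 in serum (adjusted p = 0.0438). Pou5f1, the partner of Sox2, had 0.10 in 2i and 0.04 in serum without a call (adjusted p = 0.15). Of the 12 core genes 8 had the larger SD in 2i, beside 62.4% of all member genes, and Sox2 was the 1 called.

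**Figure D3:**
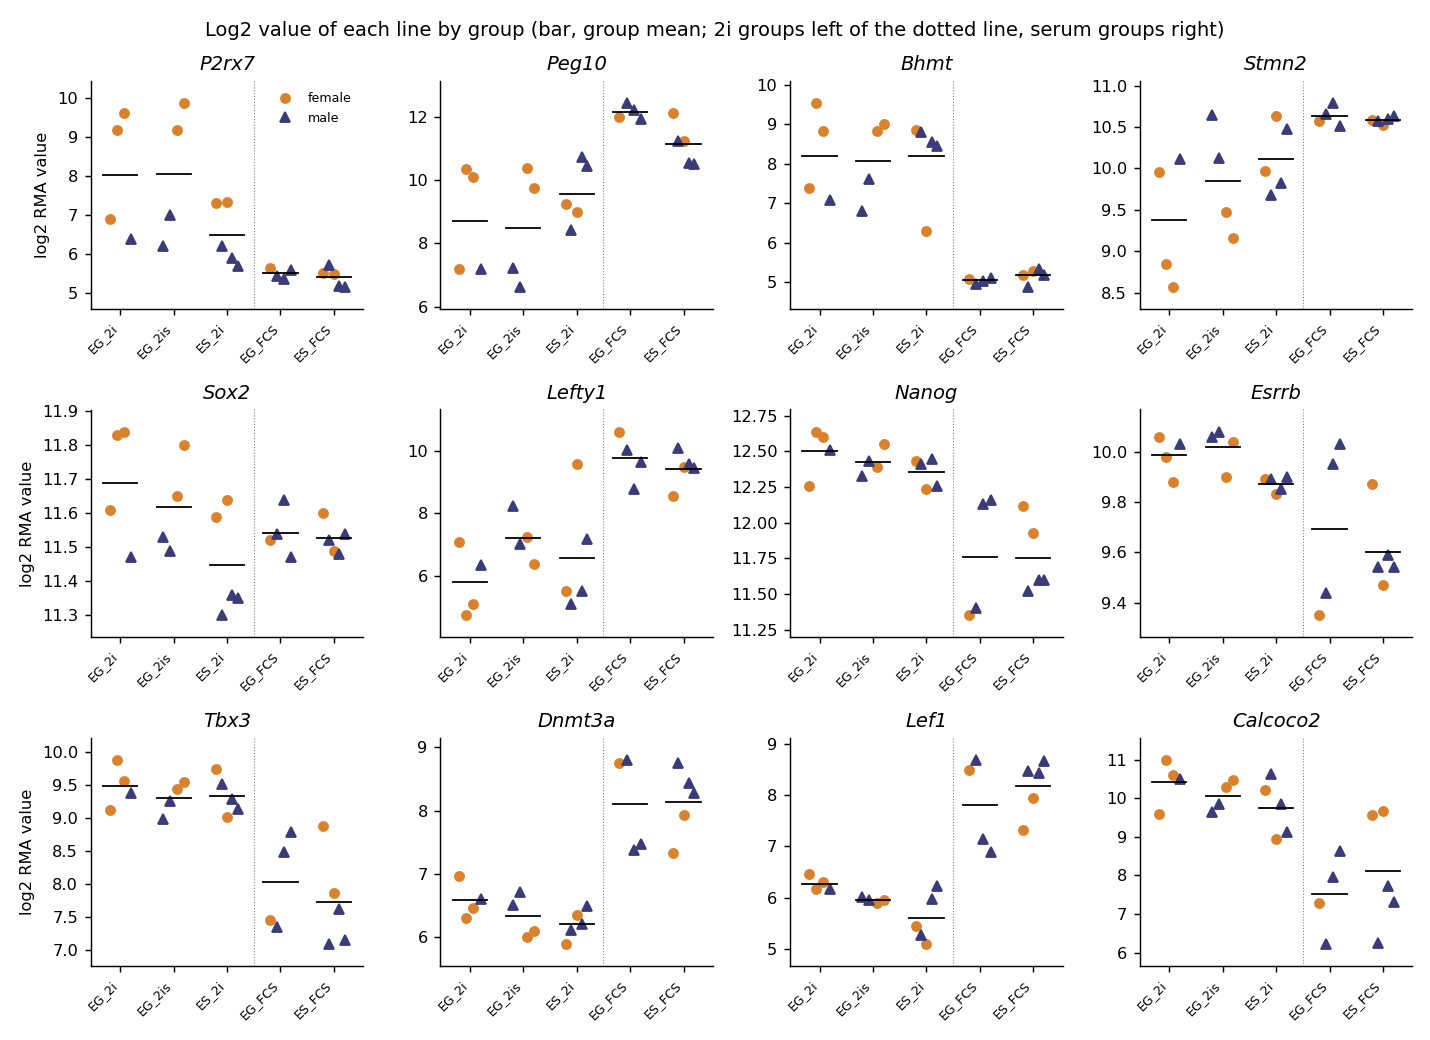
Log2 value of 12 genes in each of the 22 lines, by group, with 2i groups left of the dotted line and serum groups right of it; orange circles are female lines, dark triangles male lines and bars group means. P2rx7 and Peg10 split into high and low EG lines in 2i, whereas Nanog, Esrrb, Tbx3, Dnmt3a and Lef1 split into 2 pairs within EG_FCS and lie closer together in 2i.

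The first axis of variation among 2i lines ordered them much as the level of X-linked genes did. The first principal axis of the within-group deviations held 35.0% of the squared deviations of member genes in 2i, none of them X-linked, and its arbitrary sign was set by the X-linked level. The mean of 269 X-linked genes above the same limit, minus that of member genes, was 0.68, 0.64, 0.61 and 0.55 log2 in EG_2i replicates 3 and 2 and EG_2is replicates 4 and 3. These 4 lines scored 10.7 to 12.6 on the axis. ES_2i replicates 3 and 1 followed, with X-linked levels of 0.53 and 0.23 and scores of 8.93 and 4.79. The other 7 lines had X-linked levels of -0.22 to -0.01 and scores of -12.5 to -1.94. Among these 7 was EG_2i replicate 1, labelled female and without Y-linked signal, at -0.01 and -11.3. In serum the 3 female lines had X-linked levels of 0.08 (EG_FCS replicate 1), 0.25 (ES_FCS replicate 1) and 0.38 (ES_FCS replicate 3), and male lines -0.08 to -0.02. Genes high at the X-linked end in 2i were P2rx7, Peg10, Ptgs2, Htra1 and Gja1, and genes high at the other end were Bcam, Pla2g1b, Pcolce, Cdk6 and Cdo1, picked by their loadings.

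Sex itself was therefore examined in each culture, a choice made after these values were seen. With group, batch and sex in each culture in limma, 480 member genes (6.24%) differed between female and male lines in 2i, 270 higher and 210 lower in female lines. In serum 0 genes did (0%), with 287 at an unadjusted p under 0.05 against 1956 in 2i. Serum had fewer lines than 2i and a smaller share of female lines, so its test of sex was less precise. The female line EG_FCS replicate 1 also had an X-linked level of only 0.08. The serum and 2i counts therefore cannot be compared as sizes of the sex effect. The difference of the sex effect between the cultures was itself called for 0 genes (0%), with an unadjusted p under 0.05 for 547 genes, so the sex effect is not shown to differ between the cultures. Without EG_2i replicate 1 the counts were 892 in 2i and 2 in serum. Of the 89 genes called more variable in 2i, 46 had a called sex difference there, 19 of them higher in female lines, and of the 57 called less variable, 0 had one. Both sets were chosen by their spread in these same 2i lines, and a sex difference is part of that spread. The contrast of the 2 sets is thus largely set by the choice and is no independent evidence. P2rx7 was 2.10 ± 0.35 log2 higher in female than in male lines in 2i (SE, adjusted p = 0.00231), Ndn 0.83 ± 0.12 higher (adjusted p = 0.00121), Perp 1.02 ± 0.23 higher (adjusted p = 0.015) and Sox2 0.26 ± 0.05 higher (adjusted p = 0.00774). For Nectin2 the female minus male difference in 2i was -0.50 ± 0.10 (adjusted p = 0.0098), and for Cldn6 -0.79 ± 0.225 (adjusted p = 0.0487). The other named genes called more variable in 2i had no called sex difference there. Their limma adjusted p was 0.232 for Peg10, 0.268 for Stmn2, 0.552 for Bhmt and 0.394 for Gsto1. It was 0.791 for Pimreg, 0.349 for Cdc16 and 0.42 for Hif1a.

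When the X-linked level was fitted as a term in each culture, 3 of the 89 genes were still called more variable in 2i and 23 of the 57 less variable. With a sex term in each culture the numbers were 11 of 89 and 27 of 57. The median log2 variance ratio was 0.15 with the X-linked term and 0.2 with the sex term, and the per-line difference 0.00127 (exact permutation p = 0.869) and 0.000731 (exact permutation p = 0.922). Among male lines alone, with EG_2i left out because it held 1 male line, the median log2 variance ratio was -0.09 in place of 0.41. The per-line difference was -0.00108 there (exact permutation p = 0.946), and limma called 0 genes in each direction, with 702 and 522 at an unadjusted p under 0.05. The male comparison used fewer lines than the 13 in 2i and 9 in serum of the main one. Its ratio is less precise, and its 0 calls are a weaker outcome than the main counts. Whether X-linked dosage itself accounts for the wider spread in 2i was not tested.

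**Figure D4:**
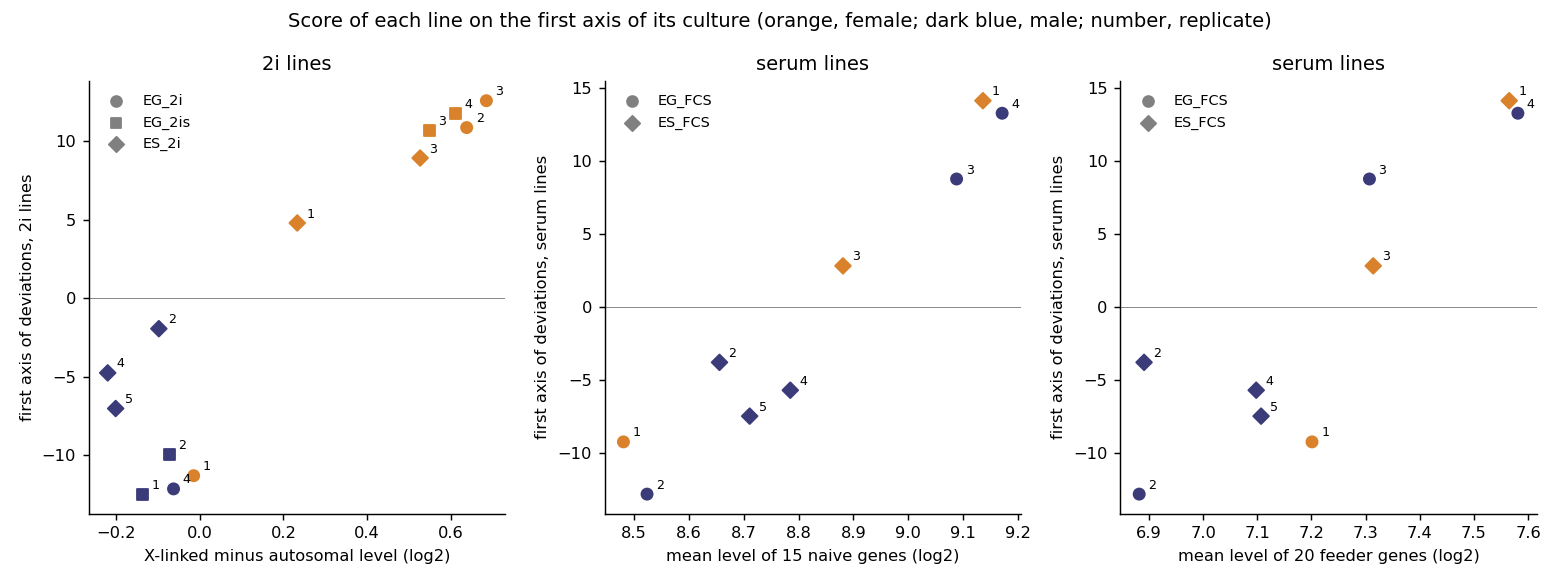
Score of each line on the first axis of within-group deviations (vertical, no unit) against the X-linked minus autosomal level in 2i lines (left) and, in serum lines, against the mean level of 15 naive genes (middle) and of 20 feeder genes (right), all in log2; orange marks female lines, dark blue male lines, and numbers are replicates. In 2i the 6 lines with X-linked levels of 0.23 or more score above 0, and in serum the 4 lines with the highest naive levels do.

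A second axis in 2i, with 19.6% of the squared deviations, set ES_2i replicate 3 (score 20.9) apart from ES_2i replicates 4 and 5 (-10.8 and -5.47), all 3 of batch 2. ES_2i replicate 3 alone held 15.2% of the squared deviations among the 13 lines, the others 4.37% to 8.82%. Its leading genes were Lefty1 and Lefty2, secreted antagonists of Nodal. Lefty1 was at 7.08, 4.74, 5.10 and 6.33 log2 in EG_2i lines, at 8.23, 7.01, 7.23 and 6.37 in EG_2is lines and at 5.53, 5.11, 9.56, 5.50 and 7.19 in ES_2i lines, against 10.61, 10.01, 8.78 and 9.64 in EG_FCS lines and 8.56, 10.08, 9.47, 9.57 and 9.46 in ES_FCS lines. ES_2i replicate 3 was thus within the serum range and above every other 2i line. The SD was 1.38 in 2i and 0.65 in serum, and this was not called (adjusted p = 0.289). Lefty2 had SDs of 1.08 and 0.36 (adjusted p = 0.373). Dnmt3l, which aids the enzymes that lay down new DNA methylation, varied through other lines. It was at 6.58, 6.54, 5.95 and 7.47 log2 in EG_2i lines, at 6.83, 6.49, 7.72 and 6.79 in EG_2is lines and at 6.57, 8.0, 7.47, 9.95 and 9.79 in ES_2i lines, against 10.39 to 11.76 in the 9 serum lines. ES_2i replicates 4 and 5 came closest to the serum lines, the SD was 1.04 in 2i and 0.35 in serum, and no call was made (adjusted p = 0.279).

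Genes less variable in 2i included regulators of the naive state. The 57 called genes had a median SD of 0.117 log2 in 2i lines (range 0.032 to 0.382) and 0.299 in serum lines (0.121 to 0.826). They lay on 17 autosomes, with at most 8 on one, and all 57 had the smaller variance in 2i within EG and within ES lines. On average 27 of the 57 were also called higher in 2i and 22 lower, where 62.7% of all member genes were called for a mean difference. Most of the 57 thus had a shifted mean as well. ES_FCS replicate 1 was the most deviating serum line for 18 of them (31.6%, beside 18.5% of all member genes).

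Nanog, a homeobox factor of the naive network, was at 12.26, 12.64, 12.60 and 12.51 log2 in EG_2i lines, at 12.33, 12.43, 12.39 and 12.55 in EG_2is lines and at 12.43, 12.41, 12.24, 12.45 and 12.26 in ES_2i lines, against 11.35, 11.40, 12.13 and 12.16 in EG_FCS lines and 12.12, 11.52, 11.93, 11.60 and 11.60 in ES_FCS lines. Every 2i line was above every serum line, and EG_FCS replicates 3 and 4 and ES_FCS replicate 1 were the highest of the serum lines. The SD was 0.12 in 2i and 0.35 in serum (difference of mean absolute deviations -0.23 ± 0.04, SE, adjusted p = 0.00497), and the call was lost without ES_FCS replicate 1 (adjusted p = 0.0567). Nanog's level in 2i lies near the top of the scale, whose highest value was 13.9.

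Esrrb, an orphan nuclear receptor of the same network, was at 9.83 to 10.08 log2 in 2i lines, against 9.35, 9.44, 9.95 and 10.03 in EG_FCS lines and 9.87, 9.54, 9.47, 9.59 and 9.54 in ES_FCS lines. The same 3 serum lines, at 9.87 or above, were the ones to reach the 2i range. The SD was 0.06 in 2i and 0.26 in serum (adjusted p = 0.0327). Tbx3, a T-box factor downstream of LIF, was at 8.98 to 9.88 log2 in 2i lines, against 7.45, 7.35, 8.49 and 8.79 in EG_FCS lines and 8.88, 7.09, 7.86, 7.61 and 7.15 in ES_FCS lines. The same 3 serum lines were high, and the SD was 0.29 in 2i and 0.73 in serum (adjusted p = 0.0477). Tfcp2l1, a further naive factor, was highest in the same 3 serum lines, with SDs of 0.30 in 2i and 0.76 in serum, but was not called (adjusted p = 0.107).

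Of the 15 naive genes 3 were called less variable in 2i and 0 more variable, and 12 had the smaller SD in 2i, with a median log2 variance ratio of -1.57 beside 0.41 over all member genes. Zfp42 had SDs of 0.185 in 2i and 0.35 in serum (adjusted p = 0.427), Dppa3 0.26 and 0.475 (0.252), Prdm14 0.39 and 0.535 (0.547) and Klf4 0.245 and 0.30 (0.619). Klf2, Gbx2 and Pecam1, named after their values were seen, had the larger SD in 2i. This list was drawn up with earlier results of these data known and is no independent evidence of its direction.

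Dnmt3a and Lef1 varied among the same serum lines in the opposite sense. Dnmt3a, a de novo DNA methyltransferase, was at 5.89 to 6.97 log2 in 2i lines, against 8.76, 8.80, 7.38 and 7.47 in EG_FCS lines and 7.32, 8.75, 7.93, 8.43 and 8.28 in ES_FCS lines. The 3 lines highest for Tbx3 were the lowest for Dnmt3a, and the SD was 0.28 in 2i and 0.66 in serum (adjusted p = 0.0312). Lef1, a transcription factor of Wnt signalling, was at 5.10 to 6.47 log2 in 2i lines, against 8.49, 8.69, 7.15 and 6.90 in EG_FCS lines and 7.33, 8.48, 7.94, 8.44 and 8.68 in ES_FCS lines. The same 3 lines were lowest, and the SD was 0.31 in 2i and 0.73 in serum (adjusted p = 0.0277). All 2i lines but EG_2i replicate 1 were under the 6.391 limit for Lef1, and 7 of 13 were for Dnmt3a. Lef1 was the 1 called of 5 Wnt targets. Of these 5, 3 had the larger SD in 2i (median log2 variance ratio 0.53), beside 62.4% of all member genes (0.41). Of 8 primed genes, Dnmt3a was the 1 called less variable in 2i and 0 were called more variable. The other primed genes were mixed: 4 of the 8 had the larger SD in 2i, the median log2 variance ratio was -0.68, and 3 had an SD over 0.5 in 2i against 2 in serum.

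Other genes called less variable in 2i had a range of functions. Elac2, which trims the 3′ ends of transfer RNA precursors, was at 8.27 to 8.54 log2 in 2i lines and 8.83 to 9.35 in serum lines, with SDs of 0.07 and 0.235 (difference -0.18 ± 0.02, SE, adjusted p = 0.000635). Cep55, of the cytokinetic midbody, had SDs of 0.07 in 2i and 0.33 in serum (adjusted p = 0.00961), and Ctsb, a lysosomal protease, 0.05 and 0.34 (adjusted p = 0.0491). Asns, the asparagine synthetase, had 0.10 in 2i and 0.32 in serum (adjusted p = 0.016), lost without EG_FCS replicate 1, 2 or 4 (up to 0.0668). It was the 1 called gene of 18 in the amino acid stress list. There 16 had the larger SD in 2i, beside 62.4% of all member genes. Seh1l, a nucleoporin, had 0.03 and 0.12 (adjusted p = 0.0277), Mlec, a lectin of the endoplasmic reticulum, 0.07 and 0.24 (adjusted p = 0.042), and Hspb1, a small heat shock protein, 0.145 and 0.285 (adjusted p = 0.038). Erbb3, a receptor for neuregulins, had 0.21 in 2i and 0.71 in serum (adjusted p = 0.0327), where ES_FCS replicates 1 and 3, at 8.98 and 9.44 log2, stood above the other 7 serum lines, at 7.29 to 8.0. Both are the female lines of ES_FCS, while EG_FCS replicate 1, also female, was at 7.58. The female minus male difference of Erbb3 in serum was 0.92 ± 0.26 log2 (SE) and was not called (limma adjusted p = 0.782).

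Among serum lines 1 axis held 46.6% of the squared deviations. Its sign was set by the naive level, and EG_FCS replicate 4, ES_FCS replicate 1 and EG_FCS replicate 3 scored 13.3, 14.1 and 8.77, with ES_FCS replicate 3 at 2.82. EG_FCS replicates 2 and 1 scored -12.8 and -9.23, and ES_FCS replicates 5, 4 and 2 -7.47, -5.69 and -3.79. The 4 lines on the positive side had the highest mean of the 15 naive genes (8.88 to 9.17 log2, against 8.48 to 8.79 in the other 5) and the lowest of the 8 primed genes (7.93 to 8.25, against 8.44 to 8.77). These naive and primed genes are member genes and so are part of the axis, which makes this match not independent of it. The 2i lines were at 9.20 to 9.54 and 6.57 to 7.28. Calcoco2, an autophagy receptor, had the largest loading. It was at 8.95 to 10.99 log2 in 2i lines, against 7.29, 6.23, 7.95 and 8.64 in EG_FCS lines and 9.57, 6.26, 9.67, 7.73 and 7.31 in ES_FCS lines. The highest serum lines for Calcoco2, ES_FCS replicates 1 and 3, are the female lines of that group, while EG_FCS replicate 1, also female, was at 7.29. The female minus male difference of Calcoco2 in serum was 1.40 ± 0.57 log2 (SE) and was not called (limma adjusted p = 0.93). The SD of Calcoco2 in serum, 1.31, was the widest of the named genes, beside 0.59 in 2i, without a call (adjusted p = 0.0922), and its second probe set gave 0.501 in 2i and 0.947 in serum.

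The serum lines with positive scores on the same axis also had the highest mean levels of feeder markers. The mean of 20 fibroblast genes was 6.13 to 6.29 log2 in 2i lines and 6.88 to 7.58 in serum lines. It was highest in EG_FCS replicate 4 (7.58) and ES_FCS replicate 1 (7.57) and lowest in EG_FCS replicate 2 (6.88) and ES_FCS replicate 2 (6.89). Among serum lines with negative scores the orders differed. EG_FCS replicate 1, at 7.20, scored -9.23, whereas ES_FCS replicate 2 scored -3.79. Feeder markers that are member genes, such as Thbs1 and Acta2 (loadings 0.626 and 0.496), are part of the axis. The match of feeder level and axis is therefore not independent of it. Acta2, smooth muscle actin, was at 4.79 to 5.45 log2 in 2i lines and 8.48 to 10.38 in serum lines, with SDs of 0.20 and 0.63 (adjusted p = 0.103), and Thbs1, thrombospondin 1, at 4.57 to 5.85 and 8.47 to 10.67, with SDs of 0.28 and 0.80 (adjusted p = 0.0993). In 2i both lay around or under the array medians. Not all markers were higher in serum: 4 of the 20 had the higher median in 2i lines, among them the matrix genes Fn1 (11.27 log2 in 2i lines and 10.93 in serum lines) and Sparc (10.88 and 10.54) and the protease inhibitor Timp1 (8.81 and 8.57), named after their values were seen. The fibroblast genes Col3a1, Lum and Dcn were low in both cultures, at 4.89 to 5.43, 4.34 to 4.78 and 4.40 to 4.83 log2 in 2i lines and 5.36 to 5.66, 4.51 to 4.82 and 4.69 to 5.66 in serum lines. Other fibroblast genes of the list were higher in serum lines. The medians in 2i and serum lines were 5.53 and 6.97 log2 for Col1a1, 5.04 and 6.49 for Col1a2 and 4.64 and 6.83 for Tagln. All of these were named after their values were seen. Of the 20 markers 6 were member genes, with 0 called in either direction. Of the 6, 3 had the larger SD in 2i, beside 62.4% of all member genes. With the feeder level as a term in each culture, 4 of the 57 genes were still called less variable in 2i and 68 of the 89 more variable. The median log2 variance ratio was then 0.75. The share of fibroblast RNA was not measured.

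Several genes varied widely in both cultures. Htra1, a secreted serine protease, was at 6.22 to 9.34 log2 in 2i lines and 6.64 to 8.96 in serum lines, with SDs of 1.13 and 0.88 (adjusted p = 0.575). Trh, the precursor of thyrotropin-releasing hormone, was at 5.62 to 10.51 and 9.12 to 11.59, with SDs of 1.33 and 0.68 (adjusted p = 0.437). Ptgs2, the inducible cyclooxygenase, was at 5.33 to 8.78 and 7.50 to 9.30, with SDs of 1.15 and 0.62 (adjusted p = 0.117). Slc27a2, a fatty acid transporter, had SDs of 0.65 and 0.85 (adjusted p = 0.514). The widest spread in 2i of any member gene was that of the predicted gene Gm5662, named after its values were seen, at 1.93 in 2i and 1.18 in serum (adjusted p = 0.416).

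Gene groups differed in how their spread compared between cultures, described here by counts and medians. Over all member genes the median log2 variance ratio was 0.41, and 62.4% had the larger variance in 2i. Glycolysis and hypoxia genes had a median of 1.63, with 12 of 14 larger in 2i and 0 called. Pfkl, a phosphofructokinase, had SDs of 0.57 in 2i and 0.19 in serum (adjusted p = 0.155) and Slc2a1, the main glucose transporter, 0.36 and 0.135 (adjusted p = 0.122). Cholesterol synthesis genes had 1.345, with 13 of 15 larger in 2i and 0 called, among them Hmgcs1 at 0.30 and 0.11 (adjusted p = 0.0754). Germline genes silenced by methylation had 1.21, with 10 of 11 larger in 2i and 0 called, such as Ddx4 at 0.54 and 0.17 (adjusted p = 0.216). Imprinted genes had 1.105, and p53 targets 0.89, with Perp as the 1 called of 10.

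Groups near or below the overall median included ERK targets at 0.31 (6 of 11 larger in 2i, 0 called), LIF-STAT3 targets at 0.08 (4 of 7, 0 called) and proliferation genes at 0.02 (7 of 14, 0 called). Spry2, an inhibitor of ERK signalling, had SDs of 0.32 in 2i and 0.16 in serum (adjusted p = 0.143), and Mki67, a marker of cycling cells, 0.19 and 0.075 (adjusted p = 0.454). The 51 ribosomal protein genes had the smallest spreads, with median SDs of 0.078 in 2i and 0.067 in serum, and housekeeping genes 0.115 and 0.071. Actb had 0.08 in 2i and 0.05 in serum (adjusted p = 0.496). Heat shock genes had 0.74, with Hspb1 as the 1 called of 9, and feeder genes -0.40.

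**Figure D5:**
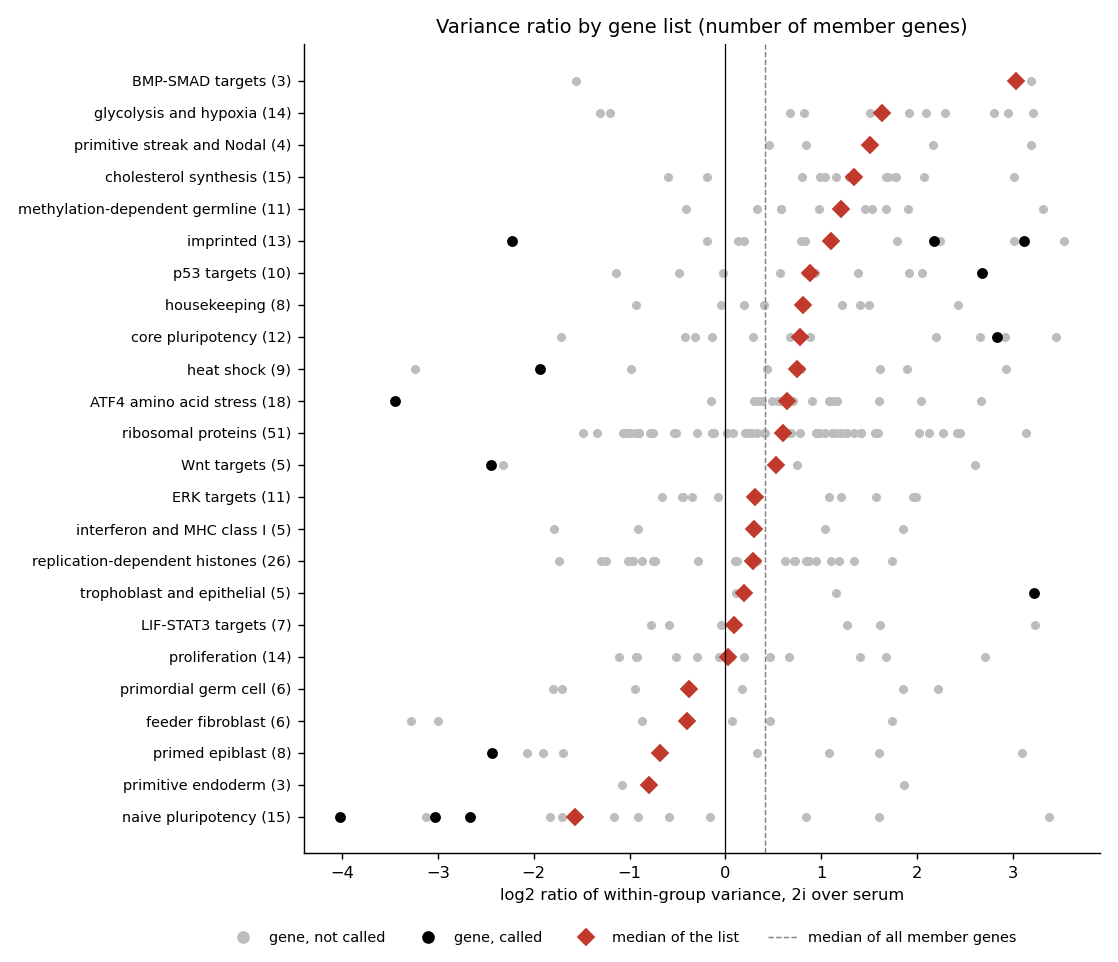
Log2 ratio of within-group variance, 2i over serum, for the member genes of each list (grey, not called; black, called), with the list's median (red diamond), the median of 0.41 over all member genes (dashed line) and equal variance (solid line); the number of member genes is in parentheses, and lists with under 3 are left out. The naive list lies furthest to the left, at -1.57.

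The response of variability to culture was compared between EG and ES lines by the difference of the 2 differences. In limma 40 member genes (0.52%) were called, 19 with the more positive response in EG and 21 in ES, and 978 had an unadjusted p under 0.05. Deviations from the group median gave 0, with 432 at an unadjusted p under 0.05, and the 22 single-line omissions gave 1 to 70. The count moved by over 1.5 times without each EG line (1 to 19), without ES_2i replicate 3 (70) and without ES_FCS replicate 1 (65). Peg10 was among the 40, with a difference of 1.20 ± 0.27 log2 (SE, adjusted p = 0.0494). Its SDs were 1.76 in EG_2i, 1.84 in EG_2is and 0.98 in ES_2i, against 0.23 in EG_FCS and 0.66 in ES_FCS. Lef1 had a difference of -0.79 ± 0.15 (adjusted p = 0.0171), with SDs of 0.15, 0.05 and 0.475 in these 2i groups, against 0.92 and 0.545 in the serum groups. Erbb3 had 0.64 ± 0.14 (adjusted p = 0.0346), and its wide spread in serum lay in ES_FCS (0.90) more than in EG_FCS (0.33). P2rx7 was not called (0.98 ± 0.23, adjusted p = 0.0564).

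Single lines decided many of the calls on named genes. Among genes more variable in 2i, Ndn kept its call in 13 of 22 omissions and lost it without EG_FCS replicate 2 or 4, EG_2is replicate 1, 2 or 4, EG_2i replicate 3 or 4 or ES_2i replicate 1 or 3 (adjusted p up to 0.111). Sox2 kept it in 9 (up to 0.116), Perp in 8 (up to 0.0977), Cdc16 in 6 (up to 0.0995) and Hif1a in 5 (up to 0.0985). Among genes less variable in 2i, Esrrb kept its call in 12 and lost it without any EG_FCS line, EG_2is replicate 1, 2 or 4, EG_2i replicate 2 or 4 or ES_FCS replicate 1 (up to 0.161). Dnmt3a kept it in 13, losing it without any EG_FCS line, EG_2is replicate 1 or 4, EG_2i replicate 3 or 4 or ES_FCS replicate 1 (up to 0.146). Lef1 kept it in 11, losing it without any EG_FCS or EG_2is line, EG_2i replicate 3 or 4 or ES_FCS replicate 1 (up to 0.17). Tbx3 kept it in 4, those without ES_FCS replicate 2, 3 or 4 or ES_2i replicate 1 (up to 0.16 in the others). Seh1l kept it in 13 (up to 0.102), Erbb3 in 12 (up to 0.183), Plagl1 in 12 (up to 0.219), Hspb1 in 8 (up to 0.215), Mlec in 6 (up to 0.143) and Ctsb in 6 (up to 0.156).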

How the data were processed

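Total RNA of 22 cultures was labelled with the Ambion WT Expression kit and hybridised to Affymetrix gene arrays, per the labels' protocols. The deposited table holds log2 values for 28853 probe sets, and RMA, limma and Affymetrix Expression Console are the tools listed, per the submitters' processing notes, with no order given. For the genome build of the array, the sources used here give none. RMA shares information across arrays, and the number of arrays limits the precision.

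Probe sets with 1 gene symbol numbered 21789, with several 1621 and with none 5443. Symbols were checked against RefSeq (GRCm38.p6), which matched 21698 probe sets and changed 0 symbols. The probe set with the highest mean stood for each of 19938 genes, of which 19106 were autosomal. Deviations from the group mean were scaled by the square root of n/(n - 1), and their absolute values were compared between 2i and serum lines with limma 3.58.1 in R 4.3.3, with Benjamini-Hochberg adjustment over all genes at 0.05. The script was tested on simulated data. Adjusted p-values of variability, sex, mean and EG against ES responses all come from limma. The per-line median deviation was compared by a 2-sided exact permutation test over 497420 regroupings. Named genes were the 8 called with the largest variance ratio in each direction, the 6 with the widest SD in each culture, up to 2 of each gene list by p, and 13 always given, such as Nanog and Actb. Predicted genes were left out of this rule. Genes, lists and rules were chosen with earlier results of these data known. The test of sex in each culture, terms for sex in each culture, X-linked level and feeder level, and male lines alone were added after seeing the data. Same-numbered ES lines in the 2 cultures had deviations correlated at -0.01, -0.02, 0.09, 0.05 and 0.24, so the numbers were not taken as pairs.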

Additional observations from a re-analysis of the deposited data

Results flagged for a closer look

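Dixon's test was applied to 105 groups of lines over 21 quantities and marked 3, where chance marks about 1 in 20. Bhmt in ES_2i replicate 3 was at 6.3 log2, with the nearest of that group at 8.46. Tfcp2l1 in EG_2i replicate 1 was at 10.84 log2, with the nearest at 11.5. Gsto1 in ES_FCS replicate 1 was at 8.49 log2, with the nearest at 8.22.

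The response of variability to culture differed between EG and ES lines, by limma's test of that difference, for 40 member genes. Among named genes it did so for Peg10 (1.201 log2, EG minus ES response), with the larger rise in EG lines, for Erbb3 (0.637), with the larger fall in ES lines, and for Lef1 (-0.786), with the larger fall in EG lines.

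X-linked genes, which are not member genes, were outside the comparisons. Of 269 above the same limit, 77 were called more variable in 2i and 0 less variable by the same limma test. Over all 19938 genes these shares were 1.21% and 0.577%. Their median SD was 0.422 log2 in 2i lines and 0.23 in serum lines, and 247 had the larger variance in 2i. The sex difference was called for 195 of them in 2i, all higher in female lines, and for 1 in serum, where female lines were fewer.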

How the results depend on the processing

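The median log2 variance ratio stayed between 0.29 and 0.52 over single-line omissions. It was 0.54 with quantile normalization again, 0.23 with batch and sex terms, 0.2 with the sex term, 0.15 with the X-linked term, 0.75 with the feeder term and -0.09 in male lines only. The per-line difference was 0.00753 to 0.0148 over omissions, 0.0162 with quantile normalization again (exact permutation p = 0.0211), 0.0246 with the feeder term (exact permutation p = 0.00326), 0.0035 with batch and sex terms (exact permutation p = 0.626), 0.000731 with the sex term, 0.00127 with the X-linked term and -0.00108 in male lines only. Counts of genes called more and less variable in 2i (89 and 57) were 0 and 0 with group medians, 2 and 5 with squared deviations, 5 and 2 by the F test, 6 and 18 with batch and sex terms, 155 and 109 over all autosomal genes, 136 and 180 in EG lines only, 148 and 233 in batch 1 only, and 0 and 0 in ES lines only (unadjusted p under 0.05 in 471 and 302) and male lines only. They were 15 and 58 with the sex term, 6 and 71 with the X-linked term and 146 and 8 with the feeder term. Over omissions they ran from 30 to 123 and from 15 to 84. The EG to ES count (40) was 0 with medians, 13 with squared deviations, 6 with batch and sex terms, 7 with the sex term, 71 with the X-linked term, 2 with the feeder term and 1 to 70 over omissions. Without EG_2i replicate 1 the sex counts were 892 in 2i and 2 in serum. With the replicate block the counts were 63, 40 and 26, and in ES lines only 0 and 0 (unadjusted 495 and 293); 1 of 5 ES lines correlated best with its own number. Signs turned for Dnmt3a (0.006), Hspb1 (0.004) and Plagl1 (0.04) with the feeder term, and for Sox2 with batch and sex terms (-0.002), the X-linked term (-0.005) and male lines only (-0.021). The causes were not tested.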
